A study of Mus musculus with 12 samples.

Results

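The collagen chain genes analysed here were the protein-coding genes whose deposited description names a collagen type and an alpha chain. This rule found 44 genes among the 58735 genes listed for U2OS cells, a human osteosarcoma line. They comprised 11 fibrillar genes (types I, II, III, V, XI, XXIV and XXVII), 6 basement membrane genes (type IV) and 27 genes of other types. Of the 44 genes, 21 had a mean level of at least 0.5 FPKM (fragments scaled for gene length and library size) over the libraries and were tested, which left 6 fibrillar, 3 basement membrane and 12 other genes.

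A collagen molecule is a triple helix of alpha chains, which a cell assembles in the endoplasmic reticulum, trims outside the cell and cross-links into larger structures. Fibrillar collagens form the banded fibrils of bone and cartilage, with type I the main protein of bone matrix and type XI a minor partner in cartilage fibrils. Type IV forms the sheet-like network of basement membranes, and type VI forms beaded filaments around cells.

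RNA-Seq was performed on 12 libraries in 4 groups of 3. The groups were blank cells, with no treatment named, cells given the small interfering RNA siSRSF1-2 or siSRSF1-3 against the splicing factor SRSF1, and cells made to overexpress LINC01134, a long non-coding RNA (OE-LINC01134). No library of cells given a control siRNA or an empty vector was among the 12, so the reagent and its delivery cannot be told apart. The organism field reads mouse while the gene identifiers are human, the methods describe transient transfection in HOS cells while the titles read U2OS. The study's texts differ on the number of replicates per condition and do not tie the 3 libraries of a group to separate cultures, so the p-values measure the spread between these libraries.

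Between 26237763 and 32954539 reads fell on genes in a library. SRSF1 was at 35.9, 19.8 and 20.5 FPKM in blank cells, 7.09, 7.46 and 7.41 in siSRSF1-2 cells and 3.33, 6.81 and 7.90 in siSRSF1-3 cells. The log2 fold changes were -1.72 (adjusted p = 0.00500) and -2.09 (adjusted p = 0.0518, not past the threshold) by limma. LINC01134 was at 878 FPKM or more in each OE-LINC01134 library and at 1.11 or less in every other library. Some libraries of a group were near copies of each other, namely blank replicates 2 and 3, OE-LINC01134 replicates 1 and 3, and all 3 of siSRSF1-2, where the variance was 2.14 to 3.20 times the counting noise against 63.2 to 316 times for the other 7 pairs. Blank replicate 1 and OE-LINC01134 replicate 2 therefore stood apart from their groups, and siSRSF1-3 replicates 1 and 2 carried FPKM scaled to a library size of 0.712 and 0.888 times their own reads. Endothelial and leukocyte markers stayed at or below 0.368 FPKM. Of 7 osteoblast markers, 4 were expressed, led by SPARC, while IBSP, BGLAP and SP7 had mean levels under 0.5 FPKM.

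A few genes carried most of the collagen message. The 6 genes with the highest mean level, COL6A2, COL4A2, COL6A1, COL1A1, COL6A3 and COL4A1, made up 69.9% to 80.4% of the summed FPKM of the 44 genes in a library. The 23 genes under the filter had mean levels of 0.00484 to 0.265 FPKM and at most 170 reads in a library, and 10 of them stayed under 0.1 FPKM in every library. Among those were COL2A1, the chain of cartilage type II collagen, with a mean of 0.0118 FPKM, and COL10A1, the chain of hypertrophic cartilage, with a mean of 0.0308 FPKM. COL3A1, the chain of type III collagen in soft tissue, reached 0.118 FPKM. In type IV, COL4A3, COL4A4 and COL4A6 had means of 0.0640, 0.241 and 0.0528 FPKM.

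**Figure D1:**
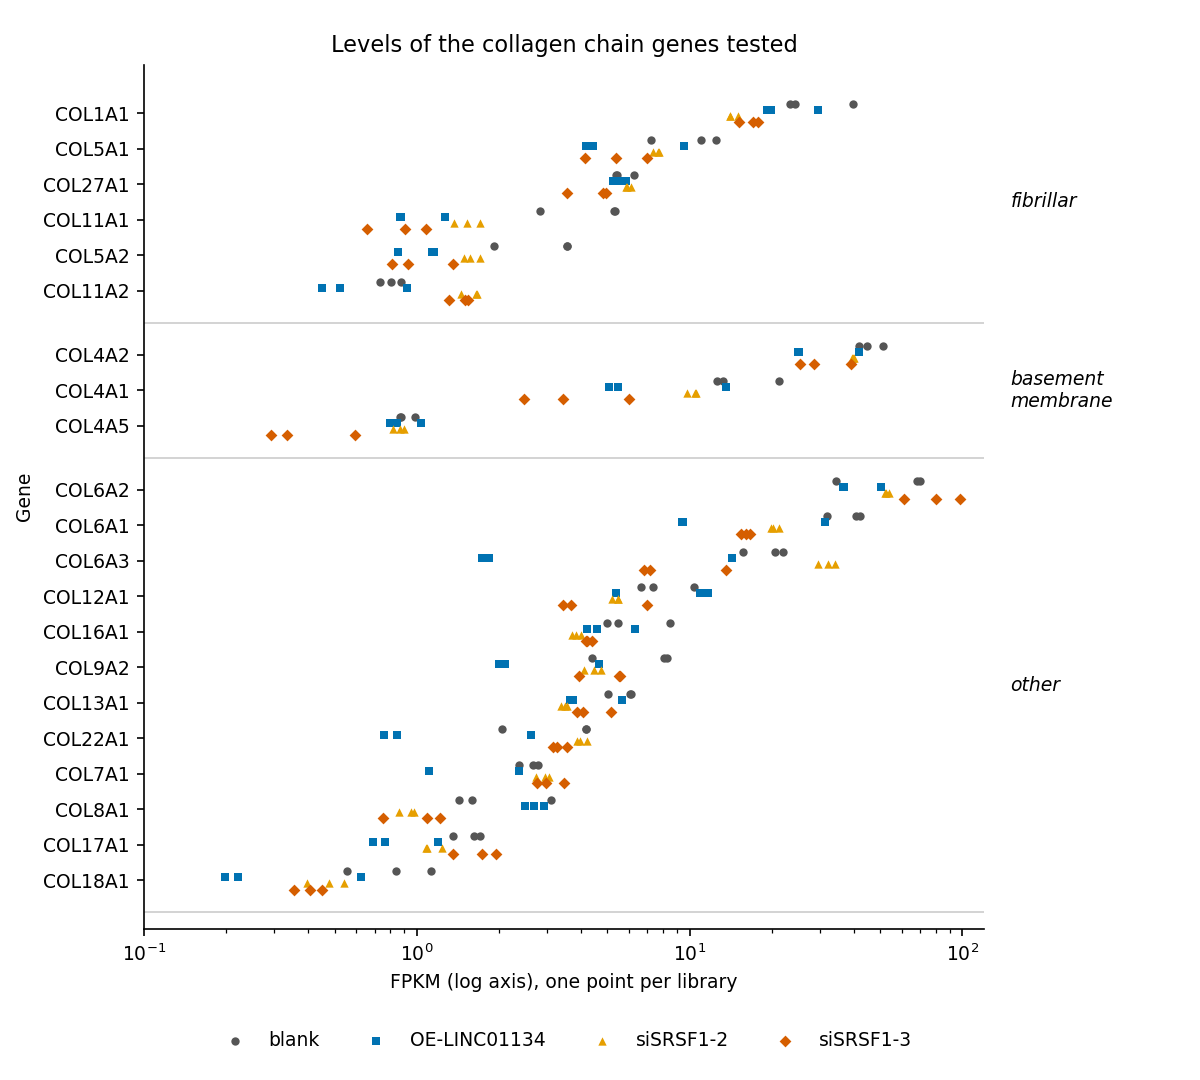
FPKM on a log axis for the 21 tested collagen chain genes, with a row per gene, rows grouped by class and a point per library coloured by group. COL6A2 has the highest mean, with 34.3 to 98.1 FPKM over the libraries, and the spread between groups is widest for COL6A3, from 1.73 to 34.0 FPKM.

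The 2 chains of type I collagen, which form a heterotrimer in bone, were at unequal levels. COL1A1 was at 39.7, 24.4 and 23.4 FPKM in blank cells, 14.1, 15 and 14.1 in siSRSF1-2 cells, 15.2, 17 and 17.9 in siSRSF1-3 cells and 19.9, 29.6 and 19.2 in OE-LINC01134 cells. COL1A2, the partner chain, had 0 to 4 reads in a library. Taking a limit of 3 reads, or the value itself where it was higher, COL1A1 was at least 1108-fold higher per length than COL1A2 in every library. Both siRNA groups lay below every blank library for COL1A1, and OE-LINC01134 overlapped the blank range. No COL1A1 to COL1A2 ratio was compared between groups because COL1A2 stood at that limit.

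The summed level of all 44 genes was 271 ± 15.8 FPKM in blank cells, 217 ± 3.64 in siSRSF1-2 cells, 200 ± 4.60 in siSRSF1-3 cells and 171 ± 54.8 in OE-LINC01134 cells (SD, n = 3). Each siRNA library lay below each blank library, as did OE-LINC01134 replicates 1 and 3 at 139 FPKM each, and replicate 2 at 234. These sums depend on the scaling of each library. Over all genes, FPKM summed to 611084, 410612 and 302504 in siSRSF1-3 replicates 1 to 3. In the libraries of the other groups this sum was 281051 to 324607. The small SD of siSRSF1-3 therefore holds on the deposited scale only. In bulk RNA, fewer cells that express these genes and less RNA per cell cannot be told apart. Fibrillar genes gave 13.3% to 23.4% of the sum in a library and basement membrane genes gave 13.9% to 29.1%. The share of fibrillar genes was 19.98% ± 2.97 in blank, 15.2% ± 0.0644 in siSRSF1-2, 15.2% ± 1.84 in siSRSF1-3 and 22.3% ± 1.42 in OE-LINC01134 libraries (SD, n = 3). The share of type IV genes was 13.9%, 16.7% and 22.9% in the siSRSF1-3 libraries and 20.4% to 29.1% in blank libraries, so these groups overlapped. Type VI genes alone gave 32.2% to 59.3%, with the highest share in siSRSF1-3 replicate 1. These shares are taken within a library and do not depend on its scaling.

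**Figure D2:**
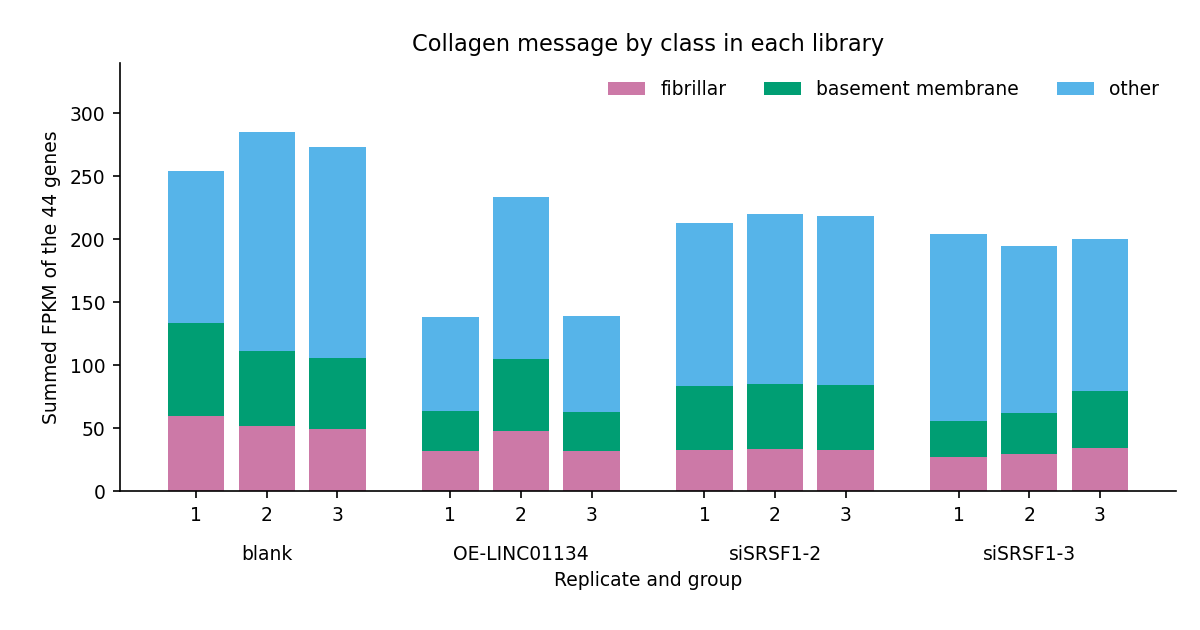
Summed FPKM of the 44 collagen chain genes in each of the 12 libraries, as bars stacked by class. The total runs from 139 FPKM in OE-LINC01134 replicates 1 and 3 to 286 in blank replicate 2, and genes outside the fibrillar and basement membrane classes give 47.6% to 72.8% of it.

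Each comparison was fitted over all 17538 genes with limma on log2(FPKM + 0.1), a scale that understates the change of genes at low levels. A gene passed where its log2 fold change lay beyond 1 in either direction and its adjusted p (Benjamini-Hochberg) was under 0.05. COL11A1 passed as lower in every treated group against blank cells, and COL6A1 with siSRSF1-3. No collagen gene passed as higher in any of the 4 comparisons.

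With siSRSF1-2, 1 of 21 collagen genes passed as lower, against 2.73% of all genes, and 0 as higher, against 2.22% of all genes. With the p left unadjusted and the fold limit kept, the counts were again 1 lower and 0 higher. The shares of all genes were 3.43% and 3.06% there. Limma voom on the recovered reads gave 2 lower and 0 higher, where 528 and 454 of all 17538 genes passed. The median log2 fold change of the 21 genes was -0.56, beside 0.02 for all genes. Values lay wholly below the blank libraries for 12 genes and wholly above for 2, while groups failed to overlap for 49.5% of all genes. By class, the medians were -0.61 for fibrillar, -0.20 for basement membrane and -0.57 for other genes.

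With siSRSF1-3, 2 of 21 genes passed as lower, against 0.929% of all genes, and 0 as higher, against 0.331%. At the unadjusted p, 6 were lower, where the share of all genes was 7.24%, and 0 were higher, where it was 7.57%. Voom gave 3 lower and 0 higher, where 411 and 176 of all 17538 genes passed. The median was -0.76, beside -0.01 for all genes, with -0.82 for fibrillar, -1.04 for basement membrane and -0.47 for other genes. Values lay wholly below blank for 13 genes and wholly above for 1, with 37.2% of all genes not overlapping. All 6 fibrillar and all 3 basement membrane genes tested were among these 14, as were 5 of 12 other genes. On a scaling by each library's own reads, the median over all genes moved to -0.26 and that of the collagen genes to -1.02. There, 0 collagen genes passed, beside 69 of all 17538 genes.

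With LINC01134 overexpression, 1 of 21 genes passed as lower, against 0.593% of all genes, and 0 as higher, against 0.257%. At the unadjusted p, 8 were lower and 0 higher, where the shares of all genes were 5% and 2.45%. Voom gave 2 lower and 0 higher, where 247 and 101 of all 17538 genes passed. The log2 fold change was below 0 for 19 of 21 genes with a median of -0.79, beside 0.05 for all genes. Values lay wholly below blank for 6 genes and wholly above for 0, near the 30.6% of all genes that did not overlap. Against the blank mean, the median over the collagen genes was -1.07 and -0.93 in OE-LINC01134 replicates 1 and 3 and -0.13 in replicate 2. Without replicate 2, 11 genes were lower, beside 1029 of all 17538 genes lower and 8.78% called in either direction. These 11 were COL11A1, COL17A1, COL18A1, COL22A1, COL4A1, COL5A1, COL5A2, COL6A1, COL6A3, COL7A1 and COL9A2. That fit kept OE-LINC01134 replicates 1 and 3, near copies at 2.14 times the counting noise, so its p-values rest on a small spread.

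Between the siRNAs, 0 genes passed in either direction, against 0.0342% of all genes higher and 0.0513% lower in siSRSF1-3 cells. At the unadjusted p, 0 were higher and 2 lower, where the shares of all genes were 9.01% and 7.42%. Voom gave 0 in either direction, where 56 of all 17538 genes were higher and 54 lower. The library values did not overlap for 15 of 21 genes, against 54.6% of all genes, with a median of -0.26. Without siSRSF1-3 replicate 3, 3 genes (COL4A1, COL4A5 and COL6A3) passed as lower here and 8 passed against blank, when 30.6% and 23.9% of all genes passed in either direction. Of all 17538 genes, 2551 and 1992 passed as lower in these fits.

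**Figure D3:**
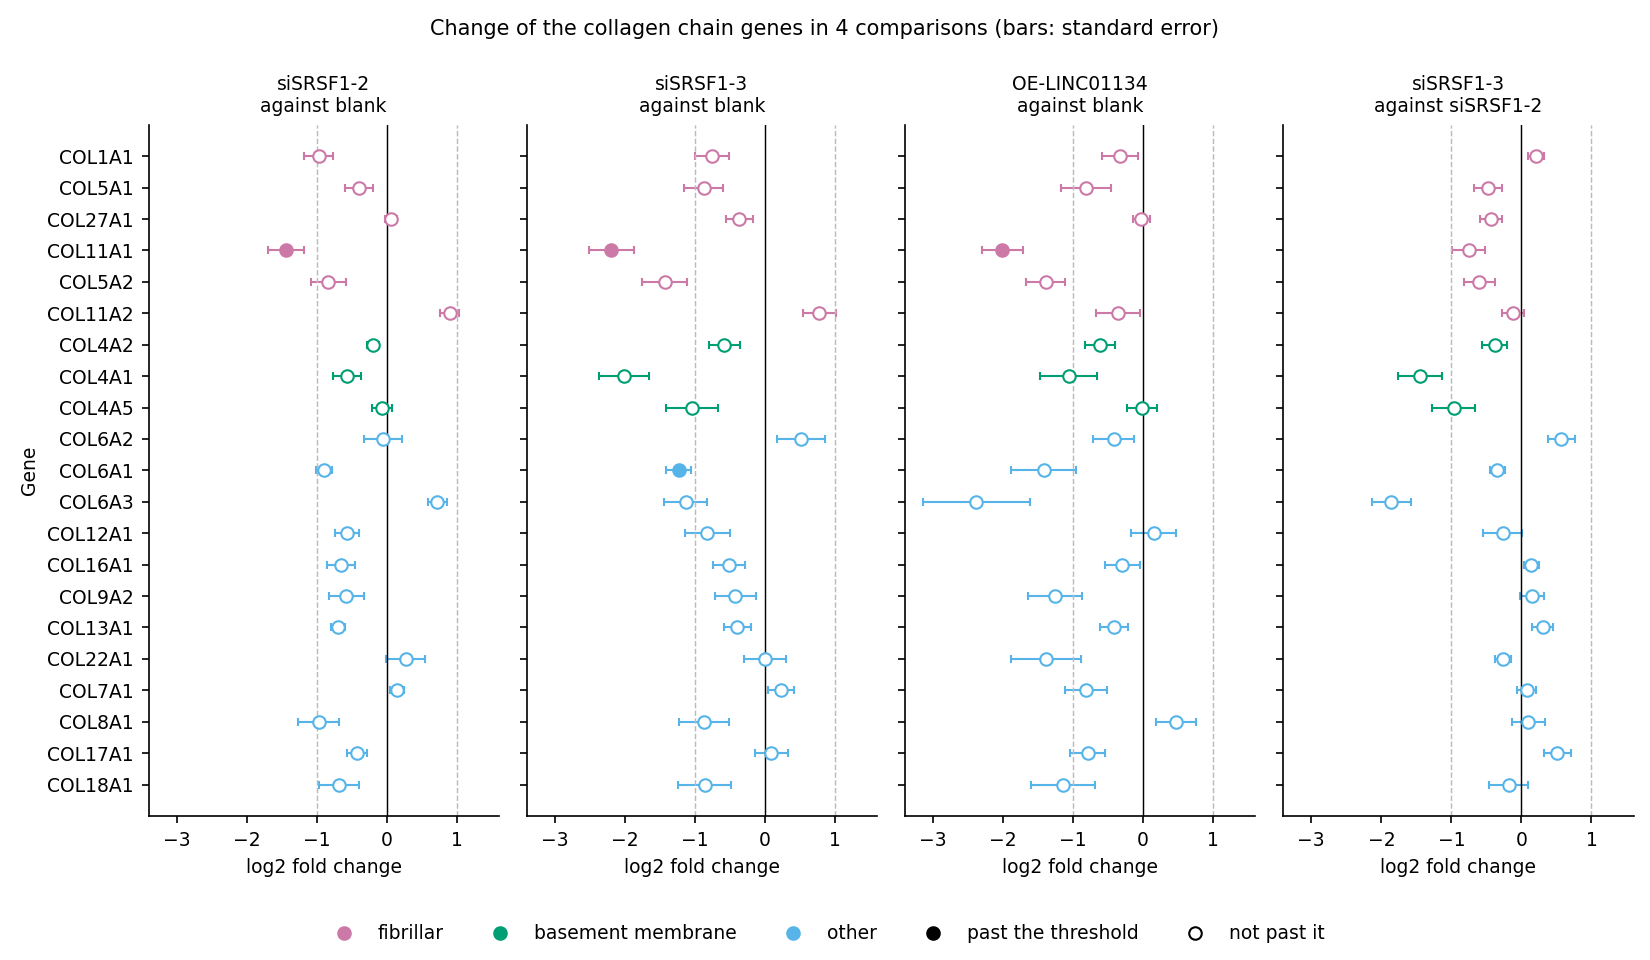
Log2 fold change of log2(FPKM + 0.1) with its standard error for the 21 tested genes in 4 comparisons, coloured by class, with filled points past the threshold. COL11A1 is filled in each comparison against blank and COL6A1 only for siSRSF1-3, and most points lie left of 0.

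Type XI chains moved unequally. COL11A1 (ENSG00000060718, minus strand at chr1:102876467-103108872 in the file's coordinates; the submitters' processing notes name only mouse builds, and no human build is given in the sources used here) encodes the alpha 1 chain of this fibril-nucleating collagen. Its level was 2.83, 5.27 and 5.31 FPKM in blank cells, 1.36, 1.53 and 1.71 in siSRSF1-2 cells, 0.656, 0.904 and 1.08 in siSRSF1-3 cells and 0.869, 1.27 and 0.877 in OE-LINC01134 cells. No library of a treated group reached the lowest blank library. It fell by 1.44 ± 0.26 (SE) on the log2 scale with siSRSF1-2, with an adjusted p of 0.0118 by limma. It fell by 2.19 ± 0.32 with siSRSF1-3 (adjusted p = 0.0453) and by 2.01 ± 0.29 with LINC01134 overexpression (adjusted p = 0.0403). These comparisons share the 3 blank libraries. The call was lost without replicate 1 or replicate 2 of siSRSF1-2, with adjusted p of 0.0533 and 0.0528. With siSRSF1-3 it held only without its replicate 3 among the libraries left out, and with LINC01134 overexpression only without its replicate 2 or blank replicate 1. In the leave-out fits that lost it, 0 to 29 of all 17538 genes passed for siSRSF1-3 and 1 to 9 for LINC01134 overexpression. The sign stayed negative in all 17 alternatives of each comparison, over which the adjusted p ran from 0.000159 to 0.791, from 0.00244 to 0.219 and from 0.00409 to 0.514.

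COL11A2, the alpha 2 chain, was at 0.879, 0.736 and 0.803 FPKM in blank cells, 1.66, 1.65 and 1.45 in siSRSF1-2 cells, 1.31, 1.51 and 1.55 in siSRSF1-3 cells and 0.451, 0.923 and 0.524 in OE-LINC01134 cells. Both siRNA groups lay wholly above blank, and OE-LINC01134 overlapped it. The log2 fold changes were 0.90 ± 0.14 (adjusted p = 0.00724 by limma) with siSRSF1-2 and 0.78 ± 0.24 (adjusted p = 0.109) with siSRSF1-3, both under the fold limit. With FPKM rescaled to the same sum, the siSRSF1-2 value was 1.03 and passed.

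The remaining fibrillar chains did not pass. COL5A1, the main type V chain that sets fibril diameter with type I, was at 7.21, 12.5 and 11 FPKM in blank cells, 7.72, 7.36 and 7.64 in siSRSF1-2 cells, 4.15, 5.39 and 7 in siSRSF1-3 cells and 4.44, 9.56 and 4.16 in OE-LINC01134 cells. COL5A2, its partner, was at 1.91, 3.54 and 3.56 FPKM in blank cells, 1.49, 1.56 and 1.70 in siSRSF1-2 cells, 0.814, 0.929 and 1.36 in siSRSF1-3 cells and 1.16, 0.855 and 1.14 in OE-LINC01134 cells. Every treated library lay below every blank library for COL5A2. Its log2 fold changes were -0.83 ± 0.25, -1.43 ± 0.33 and -1.39 ± 0.28, with adjusted p of 0.0543, 0.0710 and 0.0656 by limma. COL1A1 had log2 fold changes of -0.97 ± 0.20 with siSRSF1-2 (adjusted p = 0.0190, under the fold limit), -0.76 ± 0.24 with siSRSF1-3 (adjusted p = 0.116) and -0.33 ± 0.26 with LINC01134 overexpression (adjusted p = 0.435). COL27A1, a fibrillar chain of cartilage, ranged only from 3.55 to 6.26 FPKM and had log2 fold changes between -0.37 and 0.07 against blank.

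In type IV, COL4A1 and COL4A2, which together form the most widespread basement membrane network, lie head to head on chromosome 13 with gene models that overlap by 1422 bases. COL4A1 was at 21.3, 13.2 and 12.6 FPKM in blank cells, 9.76, 10.5 and 10.6 in siSRSF1-2 cells, 2.47, 3.44 and 5.98 in siSRSF1-3 cells and 5.48, 13.6 and 5.07 in OE-LINC01134 cells. COL4A2 was at 51.0, 44.7 and 41.7 FPKM in blank cells, 40.2, 39.9 and 39.4 in siSRSF1-2 cells, 25.4, 28.7 and 39.1 in siSRSF1-3 cells and 25.1, 41.7 and 25.1 in OE-LINC01134 cells. Both siRNA groups lay below blank for both chains, by a wider margin for COL4A1 with siSRSF1-3. The COL4A1 log2 fold change there was -2.01 ± 0.36, with an adjusted p of 0.0509 by limma, just outside the threshold, and 0.0306 by voom. Its adjusted p ran from 0.00898 to 0.231 over the 17 alternatives. COL4A2 had -0.58 ± 0.22 (adjusted p = 0.148). COL4A5, the X-linked chain of the kidney and lung network, was at 0.407 ± 0.164 FPKM with siSRSF1-3 and 0.908 ± 0.0662 in blank cells (SD, n = 3), with a log2 fold change of -1.04 ± 0.37 (adjusted p = 0.133). With siSRSF1-2, the 3 chains had log2 fold changes between -0.57 and -0.07, none with an adjusted p under the limit.

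**Figure D4:**
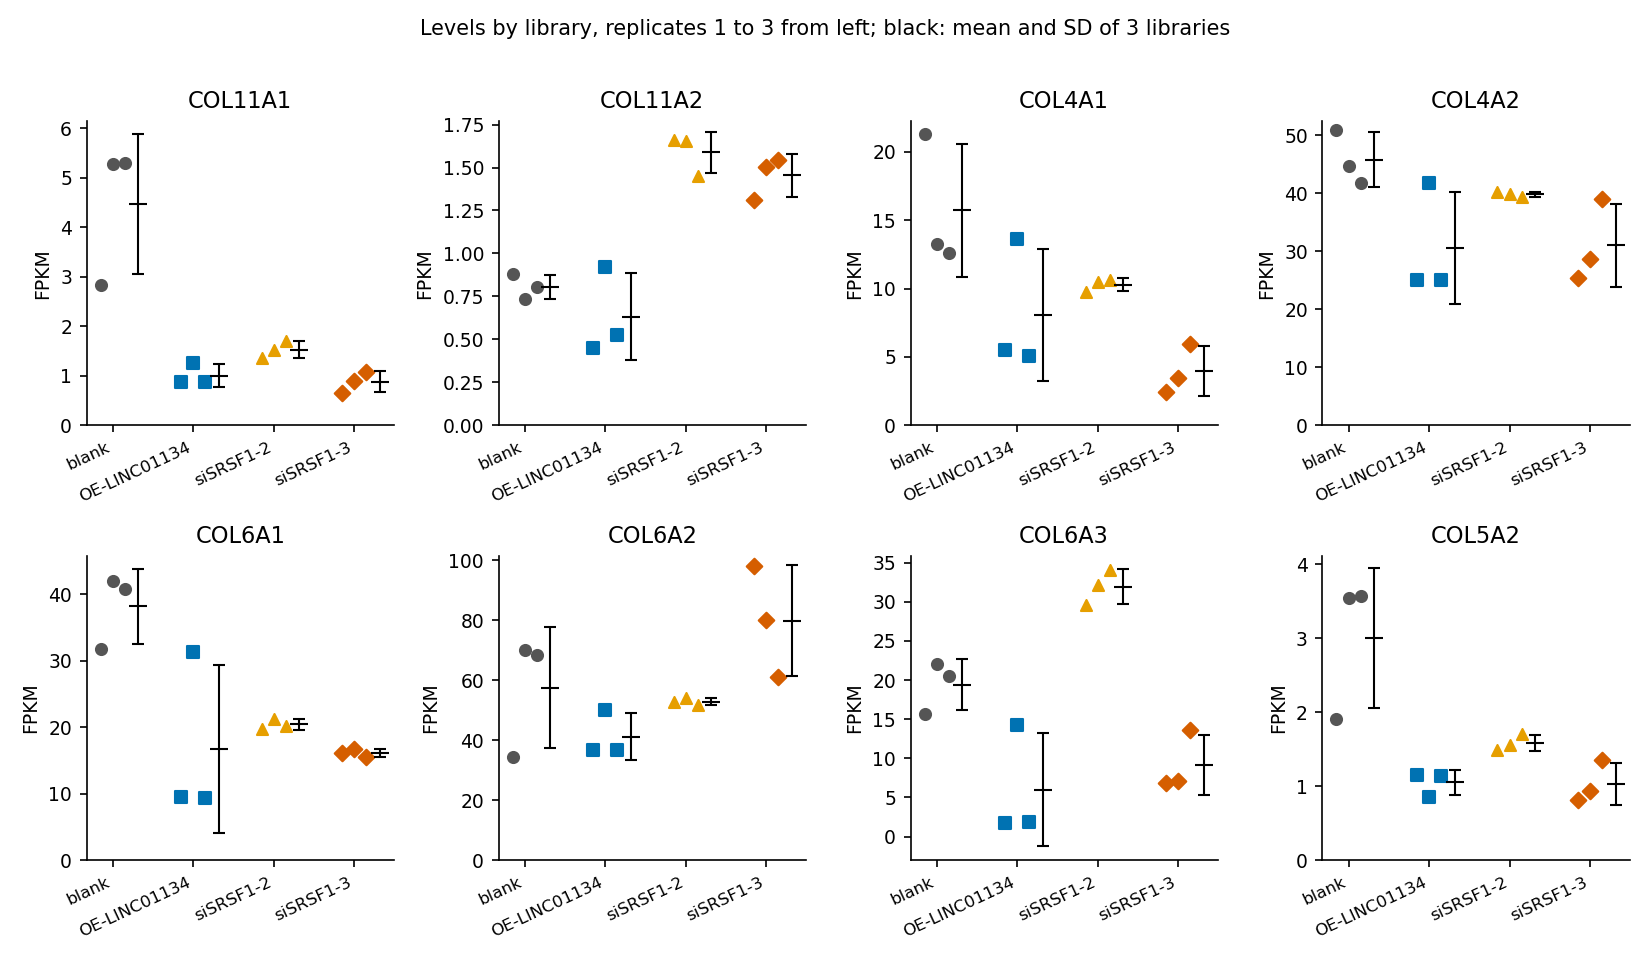
FPKM in each library for 8 collagen chain genes, with replicates 1 to 3 from left in each group and the mean and SD of 3 libraries in black. COL11A1 and COL5A2 lie below blank in all treated groups, COL6A3 splits the siRNAs (29.6 to 34.0 against 6.81 to 13.6 FPKM), and OE-LINC01134 replicate 2 lies nearer blank for COL4A1, COL4A2, COL6A1 and COL6A3.

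In type VI, whose molecule holds 1 chain each of COL6A1, COL6A2 and COL6A3, the directions of COL6A1 and COL6A3 were opposite only with siSRSF1-2. Both lay below blank with siSRSF1-3 and with LINC01134 overexpression, and COL6A2 overlapped blank in every treated group. COL6A1 (ENSG00000142156, plus strand at chr21:45981737-46005050) was at 31.8, 42.0 and 40.9 FPKM in blank cells, 19.8, 21.3 and 20.2 in siSRSF1-2 cells, 16.2, 16.7 and 15.5 in siSRSF1-3 cells and 9.49, 31.3 and 9.40 in OE-LINC01134 cells. Every treated library was below every blank library, with OE-LINC01134 replicate 2 just under blank replicate 1. With siSRSF1-3 it fell by 1.23 ± 0.18 (adjusted p = 0.0453 by limma). The call was lost when any library but siSRSF1-3 replicate 3 was left out, at adjusted p of 0.0628 to 0.219. In those fits 0 to 29 of all 17538 genes passed. Over all 17 alternatives the adjusted p ran from 0.0118 to 0.219. COL6A1 differed from blank by -0.89 ± 0.12 in siSRSF1-2 cells (adjusted p = 0.00468, under the fold limit) and by -1.42 ± 0.46 in OE-LINC01134 cells (adjusted p = 0.122).

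COL6A2, which lies 93046 bases from COL6A1 on the same strand, was at 34.3, 70.0 and 68.3 FPKM in blank cells, 52.7, 54.0 and 51.9 in siSRSF1-2 cells, 98.1, 80.2 and 61.2 in siSRSF1-3 cells and 36.7, 50.2 and 36.9 in OE-LINC01134 cells. All treated groups overlapped blank, whose own replicates differed by more than the siSRSF1-2 libraries did. The log2 fold changes were -0.05 ± 0.28, 0.52 ± 0.34 and -0.42 ± 0.30 for siSRSF1-2, siSRSF1-3 and LINC01134 overexpression, with adjusted p of 0.908, 0.327 and 0.392 by limma.

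COL6A3, the largest chain of the molecule, was at 15.7, 22 and 20.5 FPKM in blank cells, 29.6, 32.1 and 34.0 in siSRSF1-2 cells, 6.81, 7.15 and 13.6 in siSRSF1-3 cells and 1.73, 14.3 and 1.84 in OE-LINC01134 cells. The siSRSF1-2 libraries lay above every blank library, and those of siSRSF1-3 and OE-LINC01134 below. The log2 fold changes were 0.73 ± 0.14 (adjusted p = 0.0135, under the fold limit), -1.13 ± 0.30 (adjusted p = 0.0917) and -2.38 ± 0.77 (adjusted p = 0.121) by limma. Between the siRNAs the difference was -1.86 ± 0.28 (adjusted p = 0.0603). Without siSRSF1-3 replicate 3 it was -2.18 (adjusted p = 0.00135), within a range of 0.00135 to 0.639 over the 17 alternatives. The other type VI chains, COL6A5 and COL6A6, had at most 22 and 7 reads in a library. The 22 reads of COL6A5 amount to 0.0829 FPKM, and its means were 0.0663 FPKM in blank and 0.00127 in OE-LINC01134 cells.

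Ratios of partner chains within a library do not depend on its scaling. The ratio of COL4A1 to COL4A2 was 0.339 ± 0.0683 in blank, 0.259 ± 0.0137 in siSRSF1-2, 0.123 ± 0.0281 in siSRSF1-3 and 0.249 ± 0.0675 in OE-LINC01134 libraries (SD, n = 3). The ratio of COL6A1 to COL6A2 was 0.709 ± 0.189, 0.387 ± 0.00917, 0.209 ± 0.0440 and 0.379 ± 0.212 in the same order. For both ratios the siRNA groups lay wholly below blank, and OE-LINC01134 replicate 2 lay within the blank range.

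The ratio of COL5A1 to COL5A2 was 3.46 ± 0.337 in blank, 4.79 ± 0.342 in siSRSF1-2 and 5.35 ± 0.392 in siSRSF1-3 libraries, with both siRNA groups above blank. In OE-LINC01134 libraries it was 3.83, 11.2 and 3.64, and replicate 2 gave the high value. Of 9 comparisons with blank, the 6 of the siRNA groups reached a two-sided exact permutation p of 0.1, the smallest that 3 against 3 allows (adjusted p = 0.15), and the exact permutation p was 0.2 to 0.3 for OE-LINC01134. The ratio of COL6A3 to COL6A1, taken after its values were seen, was 0.495 to 0.524 in blank, 1.49 to 1.68 in siSRSF1-2, 0.421 to 0.879 in siSRSF1-3 and 0.182 to 0.456 in OE-LINC01134 libraries, the last wholly below blank.

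**Figure D5:**
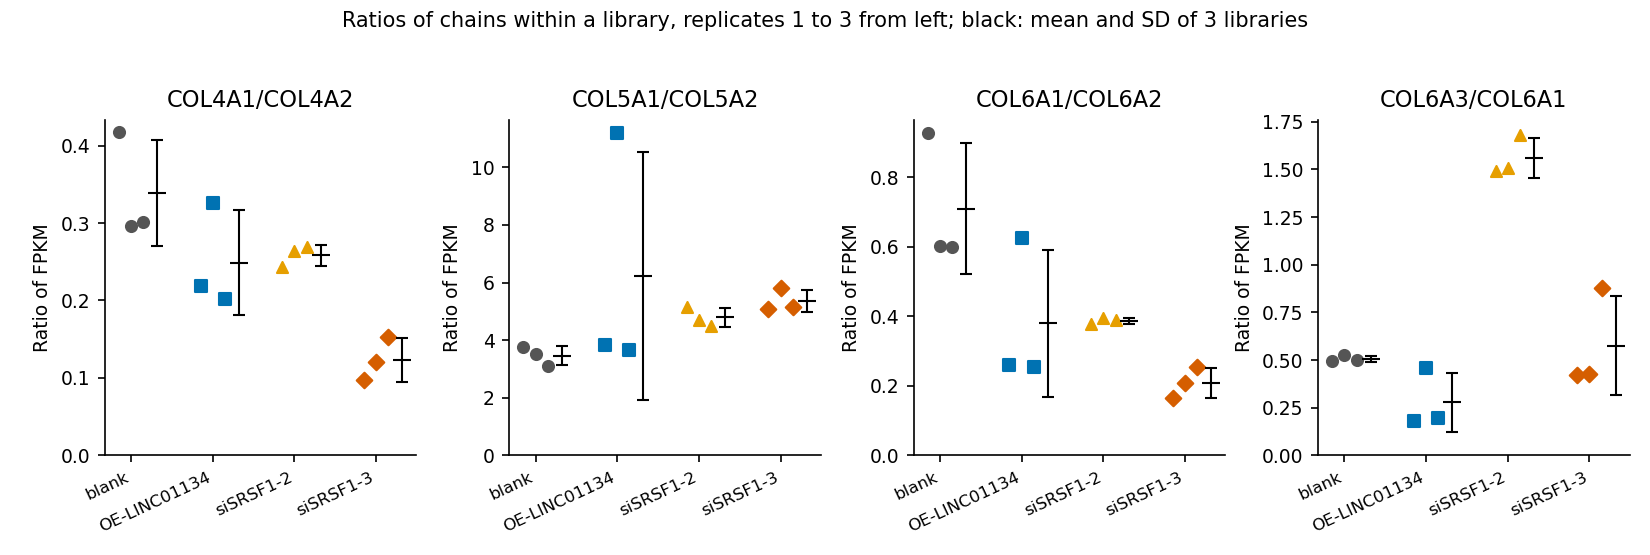
Ratio of FPKM between partner chains in each library, with replicates 1 to 3 from left and the mean and SD of 3 libraries in black. COL4A1 to COL4A2 and COL6A1 to COL6A2 are lowest in siSRSF1-3 cells (means 0.123 and 0.209), and COL6A3 to COL6A1 is highest in siSRSF1-2 cells (1.49 to 1.68).

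Among the 9 remaining genes of other types, none passed in a comparison. The fibril-associated chains were COL12A1 (3.44 to 11.7 FPKM over the 12 libraries), COL16A1 (3.71 to 8.45), COL9A2 (2.00 to 8.27) and COL22A1 (0.758 to 4.2). COL22A1, a chain of tissue junctions, was at 0.758 and 0.849 FPKM in OE-LINC01134 replicates 1 and 3, and at 2.63 in replicate 2. Its mean was 3.47 ± 1.22 in blank cells, and its log2 fold change of -1.38 ± 0.50 had an adjusted p of 0.149 by limma. COL9A2, a cartilage chain, had -1.26 ± 0.39 in that comparison (adjusted p = 0.111).

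The transmembrane chains were COL13A1 (3.38 to 6.09 FPKM) and COL17A1 (0.689 to 1.95), the latter a component of hemidesmosomes. The COL13A1 difference in siSRSF1-2 cells was -0.69 ± 0.10 on the log2 scale (adjusted p = 0.00590 by limma, under the fold limit). COL8A1, a short-chain network collagen of vessel and corneal membranes, was at 2.04 ± 0.919 FPKM in blank, 0.930 ± 0.0627 in siSRSF1-2 and 1.02 ± 0.241 in siSRSF1-3 cells (SD, n = 3), with log2 fold changes of -0.97 ± 0.29 and -0.87 ± 0.36 (adjusted p = 0.0547 and 0.164). COL7A1, the anchoring fibril chain of skin, ranged from 1.11 to 3.48 FPKM. COL18A1, the source of endostatin, ranged from 0.198 to 1.13 FPKM. Its gene model overlaps that of SLC19A1 on the opposite strand by 20149 bases, and with 120 against 781 reads at the median and the strand of counting not stated, its level is uncertain.

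Of 63 genes that modify, export, trim, bind or regulate collagen, 54 were tested. With siSRSF1-2, 9 were lower past the threshold, against 2.73% of all genes. With siSRSF1-3, 5 were lower, against 0.929%, and with LINC01134 overexpression 1 was, against 0.593%. None of the 54 was higher in these comparisons. At the unadjusted p, 11, 13 and 5 were lower, where the shares of all genes were 3.43%, 7.24% and 5%, and 0, 1 and 0 were higher. Voom gave 11, 7 and 3 lower and 0 higher, where 528, 411 and 247 of all 17538 genes were lower. Their median log2 fold changes were -0.46, -0.38 and -0.16. Between the siRNAs, 0 passed in either direction by limma, with 3 lower and 0 higher at the unadjusted p. By voom, 1 was lower and 0 were higher, where 54 and 56 of all 17538 genes passed.

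The enzymes and chaperones of procollagen folding held 4 of the 9 genes lower with siSRSF1-2, of 17 tested. PLOD1, a lysyl hydroxylase, was at 54.5, 63.6 and 65.3 FPKM in blank cells, 19.9, 20.6 and 19.8 in siSRSF1-2 cells and 28.8, 26.8 and 20.2 in siSRSF1-3 cells. It fell by 1.59 ± 0.08 with siSRSF1-2 (adjusted p = 0.000698 by limma) and by 1.28 ± 0.21 with siSRSF1-3 (adjusted p = 0.0457). PLOD2, the telopeptide lysyl hydroxylase, fell by 1.28 ± 0.11 and 1.16 ± 0.18 (adjusted p = 0.00180 and 0.0453). The prolyl hydroxylase genes P3H3 and P4HA2 fell by 1.08 and 1.01 with siSRSF1-2. The P3H3 call was lost without blank replicate 1, at a log2 fold change of -0.986. SERPINH1, the collagen chaperone HSP47, did not pass, with log2 fold changes of -0.48, -0.27 and 0.03.

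Of 11 tested genes for propeptide removal and cross-linking, LOXL1, LOXL2 (lysyl oxidase-like enzymes) and PCOLCE2 (an enhancer of procollagen C-proteinase) fell with siSRSF1-2 by 1.48, 1.11 and 1.38 on the log2 scale. The LOXL2 call was lost without blank replicate 2 or 3, at log2 fold changes of -0.997 and -0.998. PCOLCE2 also fell by 1.08 ± 0.17 with LINC01134 overexpression (adjusted p = 0.0482 by limma), a call made in 6 of 17 alternatives, with adjusted p of 0.00541 to 0.635. Its levels there were 2.42, 3.65 and 2.80 FPKM against 6.35, 6.26 and 6.15 in blank cells, with no overlap.

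Of 8 export genes, SEC23A, a subunit of the COPII coat that carries procollagen from the endoplasmic reticulum, was lower with siSRSF1-3. It was at 8.19, 6.80 and 7.07 FPKM in blank cells, 2.16, 2.42 and 3.71 in siSRSF1-3 cells and 9.47, 10.03 and 9.76 in siSRSF1-2 cells. Its log2 fold change was -1.41 ± 0.24 (adjusted p = 0.0498 by limma) with siSRSF1-3 and 0.41 with siSRSF1-2.

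Of 6 tested receptors, ITGA2, the collagen-binding integrin subunit, fell by 2.97 ± 0.34 with siSRSF1-3 (adjusted p = 0.0356 by limma), from 16.4, 18.1 and 17.5 FPKM in blank cells to 1.28, 2.09 and 3.55. In OE-LINC01134 cells it was at 2.87, 17.9 and 2.79 FPKM, with replicate 2 in the blank range. Of 12 tested regulators, SMAD3, the transcription factor of TGF-beta signalling, fell by 1.62 ± 0.07 with siSRSF1-2 and by 1.6 ± 0.24 with siSRSF1-3 (adjusted p = 0.000490 and 0.0453). CREB3L1, an activator of bone collagen genes, fell by 1.20 ± 0.28 with siSRSF1-2 (adjusted p = 0.0250). CREB3L1 was at 0.0684, 0.408 and 0.139 FPKM in OE-LINC01134 cells and at 1.12 to 2.22 in blank cells. It did not pass with LINC01134 overexpression, where replicates 1 and 3 lay near the 0.1 added to FPKM before the log.

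The 5 calls with siSRSF1-3 held in 5 of 17 alternatives for SEC23A, PLOD2 and SMAD3, in 6 for PLOD1 and in 9 for ITGA2, and with no sign change in any of them. All 5 held without siSRSF1-3 replicate 3, where 4184 of all 17538 genes passed. Without any other single library they were lost, at adjusted p of 0.0703 to 0.231, except that ITGA2 held without siSRSF1-3 replicate 1 (adjusted p = 0.0496 by limma). Of all genes, 13 passed without siSRSF1-3 replicate 1 and 29 without blank replicate 1. The number was 0 without siSRSF1-3 replicate 2, blank replicate 2 or blank replicate 3. With siSRSF1-2, P4HA2 was called in 6 of 17 alternatives and CREB3L1 in 7 of 16.

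Genes from the cell type marker lists moved as well, and their part in these results was not tested. LUM, a fibril-associated proteoglycan of mesenchymal cells, was lower with siSRSF1-2 and with LINC01134 overexpression by 1.26 and 3.38 on the log2 scale (adjusted p = 0.00586 and 0.0199 by limma). With 1 library left out, the LINC01134 call held only without OE-LINC01134 replicate 2 or blank replicate 1. Elsewhere the adjusted p by limma was 0.104 to 0.148, in fits where 1 to 9 of all genes passed. Of the 4 mesenchymal markers tested, VIM also fell with siSRSF1-2, by 1.38. The 6 mesenchymal markers, of which DCN and PDGFRA were under the filter, summed to 201 to 274 FPKM in blank, 92.2 to 94.3 in siSRSF1-2, 93.0 to 232 in siSRSF1-3 and 80.4 to 272 in OE-LINC01134 libraries. Of the 4 osteoblast markers tested, ALPL fell by 1.91 with LINC01134 overexpression, and no other passed in a comparison with blank. The ALPL call was lost in the same fits as that of LUM, at adjusted p of 0.179 to 0.206 by limma. In both siRNA groups ALPL lay wholly above blank (5.30 to 5.94 FPKM), at 7.53 to 7.87 with siSRSF1-2 and 7.27 to 12.9 with siSRSF1-3, with log2 fold changes of 0.43 and 0.85 (adjusted p = 0.00984 and 0.0996). RUNX2 had log2 fold changes of -0.68, -0.05 and -0.98 with siSRSF1-2, siSRSF1-3 and LINC01134 overexpression. The 7 osteoblast markers summed to 116 to 155 FPKM in blank, 73.8 to 77.1 in siSRSF1-2, 72.2 to 88.4 in siSRSF1-3 and 60.2 to 96.9 in OE-LINC01134 libraries, so that every treated library lay below every blank library. SPARC and SPP1 made up most of these sums. Of 3 tested chondrocyte markers MATN3, and of 4 epithelial markers KRT8, fell with siSRSF1-2, by 1.16 and 1.18. The KRT8 call was lost without siSRSF1-2 replicate 2 (adjusted p = 0.0511 by limma) and without blank replicate 1 (log2 fold change -0.93). Of the other epithelial markers, CDH1 lay wholly above blank with siSRSF1-2 (log2 fold change 0.34, adjusted p = 0.360) and EPCAM with siSRSF1-3 (0.78, adjusted p = 0.123). The median of the 4 was -0.59 with siSRSF1-2 and 0.30 with siSRSF1-3.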

How the data were processed

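Gene expression was measured by paired-end RNA-Seq in 12 libraries of U2OS cells. The authors deposited FPKM per gene and library with gene lengths and coordinates, and compared groups with DESeq2; the aligner, counting program and strand are not given in the sources used here. The submitters' processing notes name only mouse builds, which conflict with the human gene identifiers. The library kit is named as SMARTer in the labels and as NEBNext in the methods.

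FPKM times gene length gave whole reads in every library (100% of values within 0.01 of a whole read). The collagen genes and the gene lists were chosen with earlier results of these data known. All members were counted, but not every member under the filter was named. Values in every library were given for members past the threshold, the 6 with the highest mean level, the paired chains and further tested chains of a type that passed.

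For each comparison its 3 + 3 libraries entered a limma (version 3.58.1, R 4.3.3) fit of log2(FPKM + 0.1), by lmFit and eBayes with trend. The fit covered the 17538 genes whose FPKM averaged 0.5 or more. A change was called where the log2 fold change was beyond 1 in size and its Benjamini-Hochberg p was under 0.05. Chain ratios were compared with two-sided exact permutation tests. Near-identical libraries differed by 2.14 to 3.20 times counting noise and were kept as separate replicates. This does not show that they came from separate cultures, and the siSRSF1-2 p-values rest on 3 such libraries. Alternatives were other pseudocounts, filters and scalings, eBayes without trend, a joint fit, a replicate block and each library left out. After the data were seen, scaling to own reads, voom on recovered reads and averaging of near-identical libraries were added. No human reference was used, so no sequence is shown. No per-sample column was left unused.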

Additional observations from a re-analysis of the deposited data

Results flagged for a closer look

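COL6A3, the largest chain of type VI collagen, moved in opposite directions between groups. Every siSRSF1-2 library (29.6 to 34.0 FPKM) lay above every blank library (15.7 to 22 FPKM), while every siSRSF1-3 library (6.81 to 13.6 FPKM) and every OE-LINC01134 library (1.73 to 14.3 FPKM) lay below. The mean of log2(FPKM + 0.1) was 1.86 higher in siSRSF1-2 than in siSRSF1-3 cells, which limma did not place past the threshold (adjusted p = 0.0603). It was 3.11 higher in siSRSF1-2 than in OE-LINC01134 cells, and this difference was not tested. The groups of 3 were too small for a test of single outlying libraries.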

How the results depend on the processing

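No collagen gene called in a comparison changed sign under any alternative run. For siSRSF1-2 against blank, the median log2 fold change of the collagen genes was -0.36 with a pseudocount of 1, -0.208 without a filter, -0.432 with FPKM rescaled to the same sum, -0.517 by own read total and -0.425 with near-identical libraries averaged. The rescaling also gave 1 higher gene, COL11A2, beside 604 of all 17538 genes, and voom gave 2 lower genes, beside 528. For siSRSF1-3 the median was -0.445 with a pseudocount of 1, -0.296 without a filter, -0.578 with a filter at mean FPKM 1, -1.202 after rescaling to the same sum and -1.018 by own read total. The count of lower collagen genes was 0 with a pseudocount of 0.01, without a filter, on both rescalings and after averaging. It was 1 for eBayes without trend and 5 in a joint fit over all 4 groups. Over all genes the lower count was 47 with a pseudocount of 0.01, 92 without a filter and 58 by own read total. It was 0 after rescaling to the same sum and after averaging, 121 without trend and 1177 in the joint fit. For LINC01134 overexpression the count of lower collagen genes was 0 without a filter, without trend and after averaging, 2 by voom and 5 in the joint fit. Over all genes it was 65, 79, 0, 247 and 515 in that order. Between the siRNAs, the joint fit gave 2 lower collagen genes, beside 1259 of all 17538 genes. The median of the collagen genes was -0.824 after rescaling to the same sum and -0.56 by own read total.

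With 1 library left out, the count of lower genes ran from 0 to 3 for siSRSF1-2, 0 to 8 for siSRSF1-3, 0 to 11 for LINC01134 overexpression and 0 to 3 between the siRNAs. The median ran from -0.573 to -0.417 for siSRSF1-2, from -0.81 to -0.543 for siSRSF1-3, from -1.003 to -0.606 for LINC01134 overexpression and from -0.313 to -0.145 between the siRNAs, the last without siSRSF1-3 replicate 2. The highest counts came without blank replicate 1, siSRSF1-3 replicate 3, OE-LINC01134 replicate 2 and siSRSF1-3 replicate 3 in turn. Over all genes, the fits with 1 library left out called 534 to 1188, 0 to 4184, 1 to 1540 and 0 to 5358 in either direction. The highest of these came without the same libraries. The cause of these shifts was not tested. Averaging left 2, 2, 1 and 3 libraries for blank, OE-LINC01134, siSRSF1-2 and siSRSF1-3, so that fewer values entered each fit.

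Same-numbered libraries did not deviate together (correlations of -0.081 to 0.042 over 12 pairs). Because some groups held near copies, these correlations cannot tell whether the replicate numbers pair samples. With the replicate block, 0 collagen genes were lower with siSRSF1-3 and 0 with LINC01134 overexpression, beside 0 and 3 of all genes. No chain ratio changed direction with a library left out or with 0.1 added to both chains.

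The voom fit called 982, 587 and 348 genes against blank in the order siSRSF1-2, siSRSF1-3 and LINC01134 overexpression, and 110 between the siRNAs. Genes with few reads, such as COL18A1 with 49 to 274 in a library, are limited by counting error, and the 23 genes under the filter were not tested in the fits given in the report.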
